A study of Mus musculus with 6 samples.

Results

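Metabotropic glutamate receptors are the G-protein-coupled receptors for glutamate, the main excitatory transmitter of the hippocampus. Grm2, Grm3, Grm4, Grm5, Grm7 and Grm8 were taken by symbol from the authors' TPM table and joined by gene identifier to the raw counts, which gave 6 genes among 55411 rows with an Ensembl identifier. All 6 passed the filter on low counts and were among the 16129 genes tested. Hippocampal RNA was compared between 3 CLO libraries and 3 Ctrl libraries of mouse. CLO stands for offspring of male C57BL/6N mice given the neonicotinoid insecticide clothianidin at 50 mg/kg/day, a dose named in the series description as the level with no observed adverse effect, and Ctrl for the vehicle control group. The series description speaks of dosed males and the extraction protocol of offspring, and the libraries were read here as offspring. Sex, age, sire, litter and any pooling of animals are not given in the labels. The spread behind each p-value is that among the libraries of a group, and it may be technical.

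The receptors fall into groups by sequence and coupling. Group I receptors, here Grm5, couple through Gq to phospholipase C and calcium release and sit mostly on the postsynaptic side around the active synapse, where Homer proteins anchor them. Group II (Grm2 and Grm3) and group III (Grm4, Grm7 and Grm8) couple through Gi and Go, lower cyclic AMP and mostly damp transmitter release, and Grm3 is also carried by astrocytes. In the hippocampus Grm5 is known for its part in synaptic plasticity, and Grm7 for its place in the active zone of presynaptic terminals.

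Each CLO library was shallower (19502748 to 21041621 counts) than each Ctrl library (25053948 to 26603386 counts). The samples expressed markers of hippocampal fields, with a summed deposited TPM (reads per gene length, scaled to the same total in each library) of 557 to 705 in CLO and 576 to 621 in Ctrl for CA1 markers and of 223 to 305 in CLO and 227 to 309 in Ctrl for dentate granule markers. Ctrl replicates 1 and 2 stood apart. They held transcripts of spermatids, at a summed TPM of 36.8 and 14.8, against 0.169 to 0.268 in CLO and 0.669 in Ctrl replicate 3. As a mean of log2 CPM, neocortex markers were also highest in these libraries. Each receptor value is therefore also given without these libraries. That fit has a single control library, so it gives values with no test.

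In the deposited table (GRCm39) Grm5 lies on chromosome 7 from 87233376 to 87784115 on the plus strand. Grm2 lies on chromosome 9 from 106520294 to 106533281, Grm3 on chromosome 5 from 9535541 to 9775170 and Grm4 on chromosome 17 from 27641361 to 27740377, all on the minus strand. Grm7 (110622542 to 111544191, plus strand) and Grm8 (27275118 to 28135177, minus strand) share chromosome 6. These are long loci, with spans from 12988 bp (Grm2) to 921650 bp (Grm7), and the gene lengths behind the TPM values run from 3829 bp (Grm3) to 10847 bp (Grm5). Within the spans lie 10 other annotated genes on the same strand, which together had 17 counts in all libraries, against 39817 counts of the 6 receptors. The other 5 lie on the opposite strand, and only Gm20387, at the start of Grm7, had counts there (132 in all). The library kit kept the strand of each RNA. Whether reads were counted by strand is not stated in the labels.

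Promoter sequence was at hand for 4 of the 6 genes (RefSeq, GRCm38.p6, a build other than that of the counts). It is shown as a description only, and any link to the fitted values was not tested. No window was at hand for Grm4 or Grm5. Each line gives 250 bases upstream of the first listed start, 5′ to 3′ on the gene's strand. Grm7 had 2 listed starts and Grm8 had 3, and the windows of their other starts are not shown. Capitals mark a GC box, spelled GGGCGG, and a CCAAT box, spelled CCAAT, each searched on both strands. A TATA box, spelled TATAAA, was searched in the same way, as was the cyclic AMP response element, spelled TGACGTCA. The windows are chr9:106656110-106656359 (minus strand) for Grm2, chr5:9725353-9725602 (minus) for Grm3, chr6:110645262-110645511 (plus) for Grm7 and chr6:28135147-28135396 (minus) for Grm8.
Grm2: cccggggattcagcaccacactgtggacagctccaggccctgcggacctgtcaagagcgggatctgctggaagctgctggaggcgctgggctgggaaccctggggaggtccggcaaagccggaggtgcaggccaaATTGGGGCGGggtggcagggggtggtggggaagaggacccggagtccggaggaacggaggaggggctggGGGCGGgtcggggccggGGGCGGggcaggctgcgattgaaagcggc
Grm3: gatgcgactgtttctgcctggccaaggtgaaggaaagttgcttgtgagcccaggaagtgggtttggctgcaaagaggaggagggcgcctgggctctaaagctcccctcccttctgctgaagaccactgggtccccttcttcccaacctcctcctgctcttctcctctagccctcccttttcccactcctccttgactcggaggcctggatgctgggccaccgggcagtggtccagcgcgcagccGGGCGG
Grm7: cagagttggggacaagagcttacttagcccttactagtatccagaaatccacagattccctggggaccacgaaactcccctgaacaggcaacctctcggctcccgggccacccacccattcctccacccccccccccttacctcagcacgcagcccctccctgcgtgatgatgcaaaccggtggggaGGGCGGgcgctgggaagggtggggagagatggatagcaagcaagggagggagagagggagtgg
Grm8: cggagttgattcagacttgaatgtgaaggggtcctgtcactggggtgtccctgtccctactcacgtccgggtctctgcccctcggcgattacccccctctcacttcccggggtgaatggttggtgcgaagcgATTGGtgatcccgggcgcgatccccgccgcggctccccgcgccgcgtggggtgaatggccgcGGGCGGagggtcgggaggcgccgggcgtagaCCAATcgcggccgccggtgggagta
GC content was 71.2% in the Grm2 window, 62.4% in that of Grm3, 62.0% in that of Grm7 and 68.4% in that of Grm8, against a median of 52.4% over all 32851 promoter windows of this length. Grm2 had 3 GC boxes and Grm3, Grm7 and Grm8 had 1 each, while 32.7% of all windows held at least 1. A CCAAT box was found in Grm2 (1, overlapping a GC box) and Grm8 (2), and in 33.8% of all windows. No TATA box and no response element was found in these 4 windows, against 12.4% and 1.55% of all windows. These matches describe letters and not binding sites.

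The receptors kept nearly the same order of level in every library. Grm5 was the most abundant per length, with 35.2, 25.6 and 20.9 TPM in CLO replicates 1, 2 and 3 and 27.2, 38.1 and 37.0 TPM in Ctrl replicates 1, 2 and 3. It averaged 27.2 ± 7.31 TPM in CLO and 34.1 ± 5.99 TPM in Ctrl (SD, n = 3 each, as in all values below). Grm2 followed at 17.9 ± 6.67 TPM in CLO and 22.9 ± 2.85 TPM in Ctrl, Grm3 at 14.9 ± 3.72 and 20.1 ± 2.82 TPM in CLO and Ctrl, and Grm7 at 12.2 ± 2.94 and 15.3 ± 1.30 TPM in CLO and Ctrl. Grm2 and Grm3 were not separated, since their ranges overlapped in both groups and Grm3 stood above Grm2 in CLO replicate 3. Grm5 over Grm2 and Grm3 over Grm7 held in all 6 libraries, but the ranges of each pair overlapped among the CLO libraries. Grm4 (2.33 ± 1.38 TPM in CLO and 5.40 ± 2.11 TPM in Ctrl) and Grm8 (0.558 ± 0.369 TPM in CLO and 1.08 ± 0.358 TPM in Ctrl) were the lowest, each apart from its neighbours in both groups.

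**Figure D1:**
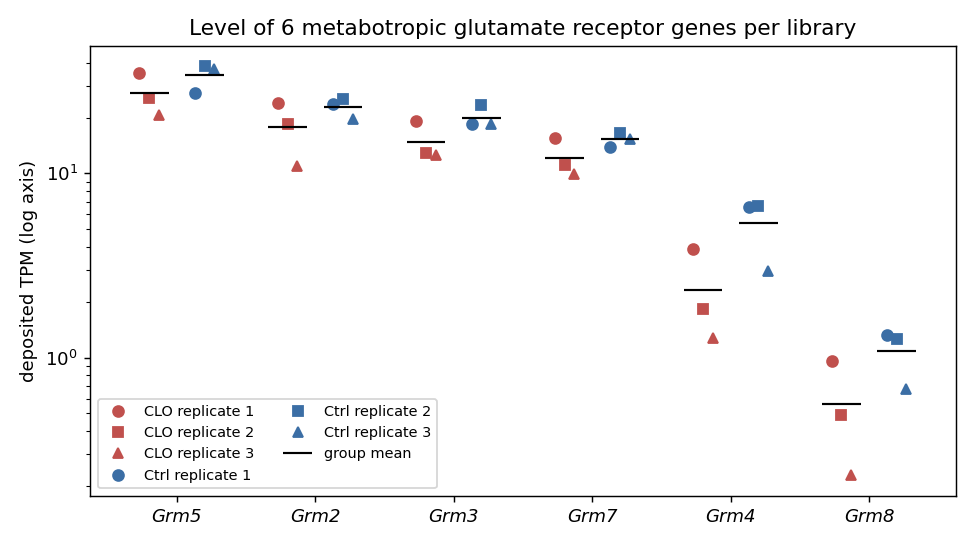
Deposited TPM of the 6 receptor genes (log axis) in each CLO library (red) and Ctrl library (blue); markers are replicates and black lines group means. The order from Grm5 down to Grm8 is seen in both groups, and for each gene at least 1 CLO library lies within or above the range of the Ctrl libraries.

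By edgeR with all 6 libraries, no receptor gene passed the adjusted threshold of 0.05 between CLO and Ctrl. Grm4 passed by DESeq2, and Grm3, Grm4 and Grm8 passed in other settings given with each gene. The fitted values of all 6 were lower in CLO (for Grm5 not once the trend with gene length was removed), and their median log2 fold change, CLO over Ctrl, was -0.29, while 51.8% of all genes tested had lower values and their median was -0.01. Over all genes 0 passed by edgeR (0% called), against 2167 at an unadjusted p under 0.05, and DESeq2 called 204 (1.26%, and 0.397% in the lower direction) and limma-voom 0. For no receptor were the groups free of overlap, and only 6.7% of all genes tested had every CLO library below every Ctrl library. At so low a share, the lack of such a gene among 6 does not set the receptors apart. At an unadjusted p under 0.05, 2 of the 6 receptors were lower in CLO, namely Grm4 and Grm8, against 7.26% of all genes. In bulk tissue, fewer cells of a type and less RNA per cell cannot be told apart.

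Grm4, a presynaptic group III receptor best known from cerebellar granule cells, showed the largest difference of the 6. It was at 9.30, 5.24 and 3.93 CPM (counts scaled to library size by TMM factors) in CLO replicates 1, 2 and 3 and at 15.9, 16.9 and 7.88 CPM in Ctrl replicates 1, 2 and 3. Ctrl replicates 1 and 2 were high, and Ctrl replicate 3 lay below CLO replicate 1, so the groups overlapped. The log2 fold change was -1.13 ± 0.33 (SE), with an unadjusted p of 0.00524. Adjusted by the Benjamini-Hochberg method, the quasi-likelihood p from edgeR was 0.247. Grm4 passed by DESeq2 (adjusted p = 0.0371), by limma-voom with sample quality weights (0.0155) and with no filter on low counts (9.7e-05), in settings that call between 204 and 3473 genes. Its adjusted p ran from 9.7e-05 to 0.856 over all alternatives. Without Ctrl replicates 1 and 2 its log2 fold change was -0.35.

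Grm8, a group III receptor of presynaptic terminals, had the next largest difference and the fewest reads. Its counts were 77, 47 and 23 in CLO replicates 1, 2 and 3 and 139, 141 and 77 in Ctrl replicates 1, 2 and 3. The 23 counts of CLO replicate 3 carry an exact 95% Poisson interval of 14.6 to 34.5, which covers counting error only. Scaled to library size this was 3.79, 2.30 and 1.17 CPM in CLO and 5.28, 5.27 and 2.96 CPM in Ctrl, with the same libraries high and low as for Grm4 and with CLO replicate 1 above Ctrl replicate 3. The log2 fold change was -0.89 ± 0.37 (SE; unadjusted p = 0.0334, adjusted p = 0.349 by edgeR) and -0.28 without Ctrl replicates 1 and 2. Grm8 did not pass by DESeq2 (adjusted p = 0.246), but it did with quality weights (0.0415) and with no filter (0.0411), and its adjusted p reached 0.979 among the alternatives.

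The third group III gene, Grm7, which encodes a low-affinity receptor of the active zone, was at 36.5, 31.4 and 30.1 CPM in CLO and at 33.3, 41.3 and 40.1 CPM in Ctrl. Its groups overlapped through CLO replicate 1 and Ctrl replicate 1. The log2 fold change was -0.23 ± 0.15 (SE; adjusted p = 0.515 by edgeR), and -0.29 without Ctrl replicates 1 and 2. Gm20387, which overlaps its start on the opposite strand, had 9, 15 and 23 counts in CLO and 21, 26 and 38 in Ctrl, few beside the 589 to 1104 counts of Grm7.

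Both group II genes also lacked a call. Grm2, an autoreceptor of glutamatergic terminals, was at 62.9, 57.7 and 36.8 CPM in CLO and at 62.4, 69.2 and 57.0 CPM in Ctrl. CLO replicate 3 was low and the other CLO libraries lay inside the range of Ctrl. Its log2 fold change was -0.26 ± 0.19 (SE; adjusted p = 0.546 by edgeR), and it ran from -0.41 to -0.06 with 1 library left out. Without Ctrl replicates 1 and 2 it was -0.12. Grm3, which neurons and astrocytes both use, was at 29.4, 23.6 and 25.0 CPM in CLO and at 28.5, 37.8 and 31.5 CPM in Ctrl. CLO replicate 1 alone reached into the Ctrl range. The log2 fold change of Grm3 was -0.33 ± 0.16 (SE; unadjusted p = 0.0698, adjusted p = 0.4005 by edgeR), and -0.28 without Ctrl replicates 1 and 2. Grm3 passed with quality weights (adjusted p = 0.0261, range 0.0261 to 0.990 over the alternatives). Astrocyte markers had a median log2 fold change of -0.14, with 0 of 10 at an unadjusted p under 0.05.

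Grm5, the Gq-coupled receptor, was at 153, 133 and 117 CPM in CLO and at 119, 175 and 178 CPM in Ctrl. Here Ctrl replicate 1 was low, near CLO replicate 3, while Ctrl replicates 2 and 3 lay above all CLO libraries. The log2 fold change was -0.23 ± 0.18 (SE; adjusted p = 0.566 by edgeR). Without Ctrl replicates 1 and 2 it was -0.41, further from 0, unlike the values of Grm4 and Grm8.

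Gene length moved with these differences. Over all genes the median log2 fold change was -0.25 in the longest of 5 bins by deposited length (7597 bp and more), which holds Grm5 and Grm8. It was -0.10 in the next bin, which holds Grm2, Grm4 and Grm7, and -0.01 in the middle bin, which holds Grm3. When each library's trend with length was removed, the log2 fold change of Grm5 was 0.02 ± 0.13 (SE), that is no longer lower in CLO, and that of Grm7 was -0.14 ± 0.12. Grm2 was at -0.16 ± 0.17, Grm8 at -0.71 ± 0.34 (unadjusted p = 0.0579 by edgeR), Grm4 at -1.06 ± 0.32 and Grm3 at -0.34 ± 0.15. In that fit 2 of the 6, Grm4 and Grm3, were lower at an unadjusted p under 0.05, against 5.58% of all genes, and by edgeR the lowest adjusted p of the 6 was 0.463.

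**Figure D2:**
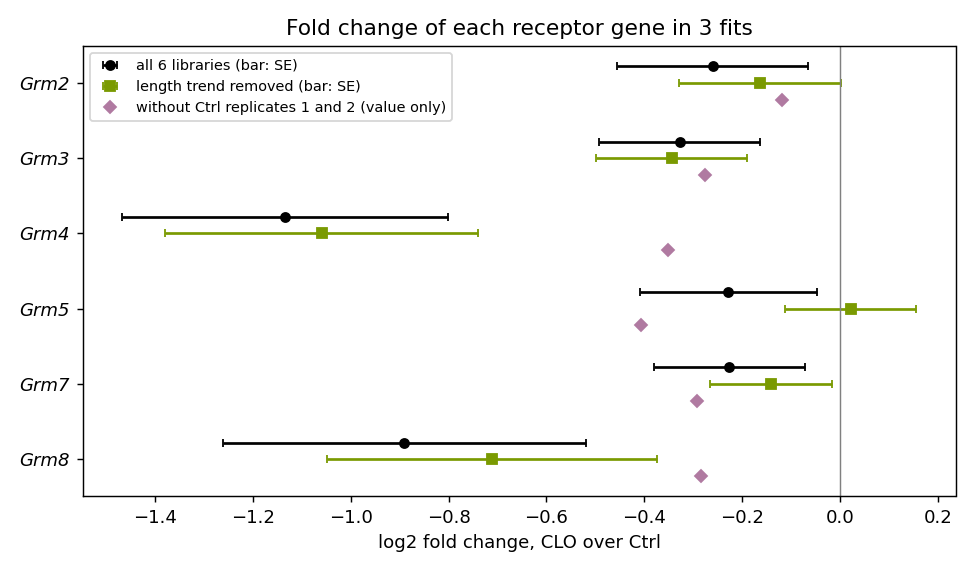
Log2 fold change (CLO over Ctrl) of each receptor gene in the fit of all libraries, with the length trend removed, and without Ctrl replicates 1 and 2; bars are SE and the last setting has none. Grm4 and Grm8 lie at -1.13 and -0.89 with all libraries but at -0.35 and -0.28 without Ctrl replicates 1 and 2, and Grm5 moves to 0.02 when the length trend is removed.

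Across the 6 libraries some receptors moved more closely together than others. The pairs named here were picked from the values and have no test. Grm4 and Grm8 moved together (Pearson r of log2 CPM = 0.97 over 6 libraries, as a description), and the ratio of Grm8 to Grm4 TPM stayed between 0.181 and 0.265 in CLO and between 0.189 and 0.227 in Ctrl, although Grm4 itself ran from 1.27 TPM in CLO replicate 3 to 6.67 TPM in Ctrl replicate 2. Grm2 lay near Grm8 (r = 0.93). Grm5 and Grm7 were also close (r = 0.94), as were Grm3 and Grm7 (r = 0.92). The lowest of the pairs was Grm4 and Grm5 (r = 0.37), then Grm5 and Grm8 (r = 0.43). The receptors did not split cleanly, since Grm3 was as near to Grm4 as to Grm5 (r = 0.77 for both), and r was 0.70 for Grm3 and Grm8 and 0.67 for Grm2 and Grm7. Grm4 and Grm5 differed most in Ctrl replicate 1, where Grm4 and Grm8 stood at 0.88 and 0.76 log2 units above their mean of 6 libraries and Grm5 at -0.27. In Ctrl replicate 3 Grm4 was at -0.13 and Grm5 at 0.31.

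Several marker lists, of neighbouring tissue and of other cell types, were high in Ctrl replicates 1 and 2, as Grm4 and Grm8 were. Neocortex markers stood at -0.03, -0.34 and -0.56 log2 units in CLO replicates 1, 2 and 3 and at 0.58, 0.45 and -0.10 in Ctrl replicates 1, 2 and 3, as a mean over 18 genes. Of these, 17 had lower values in CLO (median -0.50, and -0.25 without Ctrl replicates 1 and 2), against 51.8% of all genes tested. At an unadjusted p under 0.05 by edgeR 10 were lower, against 7.26% of all genes. The summed TPM of the 18 was 185 to 297 in CLO and 255 to 375 in Ctrl, with no marker at 0. One of the 18, Calb1, is also on the dentate list. Retrohippocampal markers (6 of 8 lower, median -0.38) and thalamus and habenula markers (7 of 9 lower, median -0.44) had the same libraries high. So had striatum markers (7 of 10 lower, median -0.19) and interneuron markers (10 of 12 lower, median -0.25). These lists are not all separate. Slc17a6 (log2 fold change -1.47) is on both the retrohippocampal and the thalamus and habenula list. Dcn is on both the retrohippocampal and the meningeal fibroblast list. On the thalamus and habenula list Prkcd, named after its values were seen, went the other way, at 22.9, 22.8 and 22.4 CPM in CLO and at 10.6, 6.76 and 8.72 CPM in Ctrl. Its log2 fold change was 1.38 with all libraries and 1.38 without Ctrl replicates 1 and 2. Oligodendrocyte markers stood at 0.42 and 0.13 in Ctrl replicates 1 and 2 (8 of 8 lower in CLO, median -0.19), endothelial markers at 0.14 and 0.27 (4 of 6 lower, median -0.20) and meningeal fibroblast markers at 0.24 and 0.47 (6 of 8 lower, median -0.10), with Ctrl replicate 3 below 0 for each. In CLO replicates 1, 2 and 3 oligodendrocyte markers stood at 0.09, -0.46 and 0.03 and endothelial markers at 0.12, 0.03 and -0.32. Meningeal fibroblast markers stood there at 0.07, 0.25 and -0.54, so that CLO replicate 2 was no lower than Ctrl replicate 1. The cerebellum is the tissue best known for Grm4, and its granule cell markers Gabra6 and Barhl1 had 0 counts in all 6 libraries. Cbln3 and En2 did not pass the filter on low counts. The 6 of 10 listed cerebellar markers that could be tested stood at 0.06, -0.11 and -0.29 in CLO and at 0.22, 0.35 and -0.23 in Ctrl (4 of 6 lower, median -0.23), also high in Ctrl replicates 1 and 2. These markers did not move alike. Cbln1, named after its values were seen, was at 7.73, 4.41 and 2.91 CPM in CLO and at 19.2, 15.6 and 2.92 CPM in Ctrl. Il16, named in the same way, was at 31.9, 34.9 and 35.2 CPM in CLO and at 17.1, 26.2 and 38.0 CPM in Ctrl. Etv1 is also on the retrohippocampal list and Calb2 on the thalamus and habenula list. The part of all these cell types in the values of Grm4 and Grm8 was not tested. Dentate granule markers, in contrast, stood at 0.24, 0.10 and -0.34 in CLO and at -0.27, -0.04 and 0.31 in Ctrl, with Ctrl replicate 1 low as for Grm5.

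**Figure D3:**
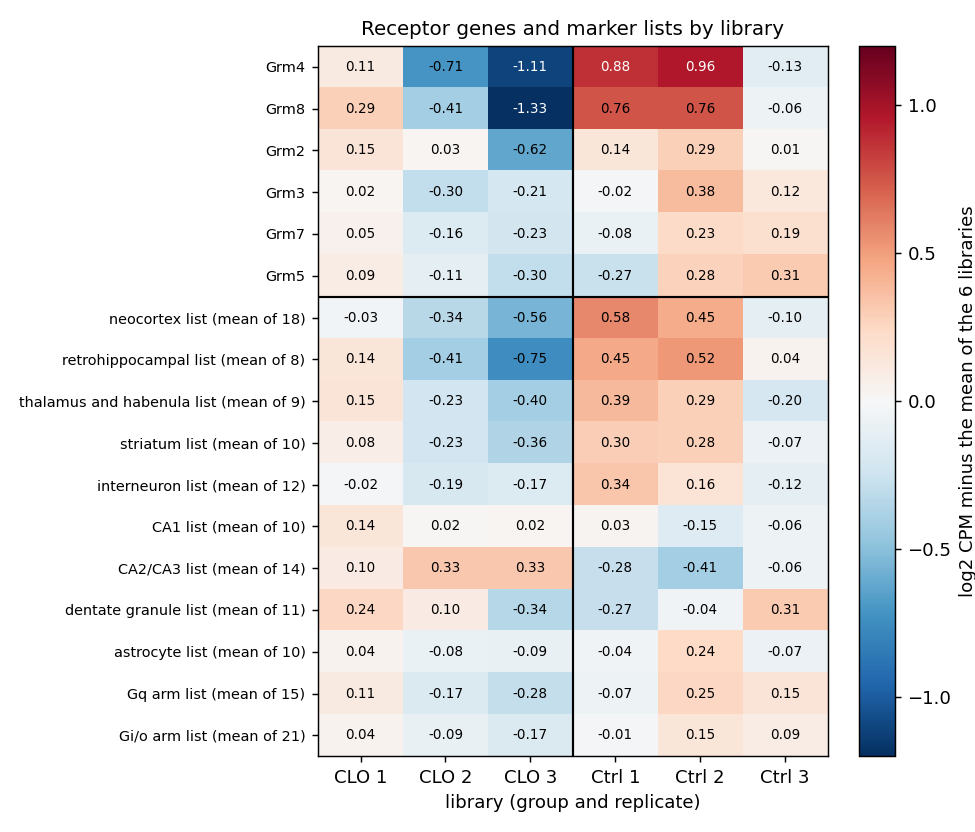
Log2 CPM of each receptor gene (top) and mean of marker and signalling lists (bottom) relative to the mean of the 6 libraries, CLO libraries on the left and Ctrl on the right. Grm4, Grm8 and the neocortex to interneuron lists are high in Ctrl replicates 1 and 2, whereas Grm5 is highest in Ctrl replicates 2 and 3 (0.28 and 0.31).

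The make-up of the summed receptor signal shifted little apart from Grm4 and Grm8. The 6 genes together reached 99.0, 70.5 and 55.9 TPM in CLO and 91.3, 111 and 94.2 TPM in Ctrl, so that CLO replicate 1 lay within the Ctrl range. Of that sum group II made up 43.6 ± 1.19% in CLO and 43.5 ± 2.81% in Ctrl, and Grm5 36.4 ± 0.899% in CLO and 34.4 ± 4.73% in Ctrl. Group III made up 20.0 ± 0.798% in CLO and 22.0 ± 1.92% in Ctrl. Within it, Grm4 took 2.28 to 3.93% in CLO and 3.15 to 7.20% in Ctrl, and Grm8 0.412 to 0.968% in CLO and 0.714 to 1.45% in Ctrl. Grm7 took 16.4 ± 1.14% in CLO and 15.5 ± 0.691% in Ctrl. These shares do not depend on library scaling, but the groups overlapped for Grm4 and Grm8 here too, through CLO replicate 1 and Ctrl replicate 3.

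**Figure D4:**
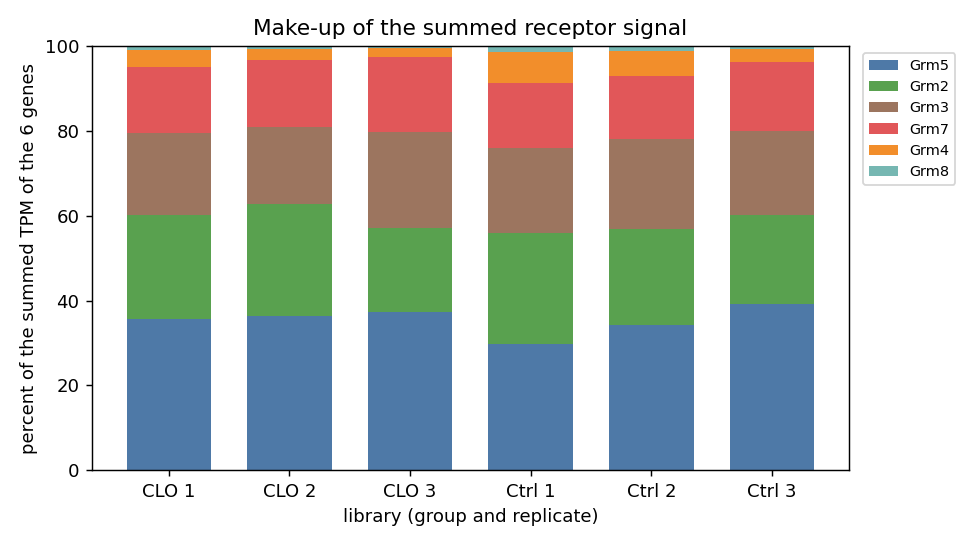
Share of each receptor gene in the summed TPM of the 6 genes, 1 bar per library, CLO libraries left of Ctrl libraries. Grm5 and group II make up most of each bar, and the Grm4 segment is 2.28 to 3.93% in CLO and 3.15 to 7.20% in Ctrl.

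Genes that carry the receptors' signal had slightly lower values on the whole, and none passed by edgeR. Of 87 genes tested on 5 signalling lists, 64 had lower and 23 higher values in CLO, with a median of -0.11. Among all genes tested 51.8% had lower values, and that share rose with length, to 66.9% in the next longest bin and 82.1% in the longest. At an unadjusted p under 0.05 by edgeR, 8 of the 87 were lower and 2 higher, against 7.26% and 6.18% of all genes. On the list of the Gq arm, which serves Grm5, 13 of 15 genes had lower values (median log2 fold change -0.20, and -0.05 with the length trend removed). Plcb4, a phospholipase C, was at 5.23 ± 1.83 CPM in CLO and 9.58 ± 2.98 CPM in Ctrl (log2 fold change -0.87 ± 0.29 SE, adjusted p = 0.291 by edgeR), and by library it was at 7.33, 4.36 and 3.98 CPM in CLO and at 11.4, 11.2 and 6.15 CPM in Ctrl. These groups overlapped, and without Ctrl replicates 1 and 2 its log2 fold change was -0.23. Prkcb, a protein kinase C, had no overlap between groups, at 519, 428 and 324 CPM in CLO and at 589, 607 and 526 CPM in Ctrl (adjusted p = 0.340 by edgeR). Its log2 fold change of -0.44 was -0.16 with the length trend removed, while that of Plcb4 was then -0.71. Gnaq, the G-protein subunit itself, was at 249 ± 17.3 CPM in CLO and 262 ± 17.2 CPM in Ctrl, Plcb1, the main forebrain phospholipase C, at 105 ± 24.0 and 128 ± 13.0 CPM in CLO and Ctrl, and Dagla, which makes the endocannabinoid 2-AG, at 87.9 ± 19.0 and 80.8 ± 13.2 CPM in CLO and Ctrl. The log2 fold change of Plcb1 was -0.29, and -0.05 with the length trend removed. That of Dagla was 0.12 with all libraries and -0.11 without Ctrl replicates 1 and 2.

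On the list of the Gi and Go arm, which serves groups II and III, 16 of 21 genes had lower values (median -0.11). Adcy8, a calcium-stimulated adenylyl cyclase, was at 12.3 ± 2.68 CPM in CLO and 19.3 ± 4.48 CPM in Ctrl (log2 fold change -0.65 ± 0.22 SE, adjusted p = 0.291 by edgeR), and at -0.20 without Ctrl replicates 1 and 2. Gnao1, the abundant neuronal Go subunit, was at 542 ± 62.7 CPM in CLO and 670 ± 93.1 CPM in Ctrl, Kcnj6, a G-protein-gated potassium channel, at 30.0 ± 4.88 and 39.0 ± 6.18 CPM in CLO and Ctrl, and Gnai1 at 169 ± 18.7 and 175 ± 27.3 CPM in CLO and Ctrl. For Gnai1 the difference was well inside the spread between libraries. With the length trend removed, Gnao1 went from -0.31 to -0.05 and Kcnj6 from -0.38 to -0.03, while Adcy8 stayed at -0.51.

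Scaffolds and binding partners went both ways, with 12 of 21 lower and 9 higher (median -0.08, and 0.045 with the length trend removed). Homer1, which anchors Grm5, was at 132 ± 8.58 CPM in CLO and 136 ± 9.59 CPM in Ctrl, a difference smaller than either SD. The log2 fold change of Homer1 was -0.05, but 0.38 with the length trend removed. Homer3 had higher values in CLO at an unadjusted p of 0.0211, at 75.8, 87.7 and 89.5 CPM in CLO and at 47.2, 45.9 and 79.6 CPM in Ctrl, and it too overlapped through Ctrl replicate 3 (log2 fold change 0.55, and 0.09 without Ctrl replicates 1 and 2). Shank1, a scaffold that binds Homer, was at 351, 277 and 202 CPM in CLO and at 363, 576 and 419 CPM in Ctrl, without overlap (log2 fold change -0.71 ± 0.22 SE, adjusted p = 0.266 by edgeR). Shank2 was at 64.8 ± 16.1 CPM in CLO and 91.0 ± 24.5 CPM in Ctrl, with overlap. With the length trend removed, the log2 fold change of Shank1 was -0.45, and that of Shank2 went from -0.49 to -0.19. Elfn1 and Elfn2, adhesion proteins that bind group III receptors across the synapse, were at 12.5 ± 4.83 CPM and 126 ± 32.2 CPM in CLO and at 17.7 ± 4.26 CPM and 147.5 ± 13.3 CPM in Ctrl. Pick1, which binds the tail of Grm7, was at 10.5 ± 0.590 CPM in CLO and 11.2 ± 5.39 CPM in Ctrl, and its log2 fold change was -0.09 with all libraries and 0.56 without Ctrl replicates 1 and 2.

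Of 15 genes of desensitisation, 12 had lower values (median -0.09). Rgs14, a regulator of G-protein signalling that is also a CA2 marker, had higher values in CLO without overlap, at 106 ± 7.23 CPM in CLO and 64.8 ± 14.8 CPM in Ctrl (adjusted p = 0.201 by edgeR and 0.0300 by DESeq2). The share of all genes higher without overlap was not computed. Its log2 fold change was 0.71, and 0.45 without Ctrl replicates 1 and 2. Among CA2 and CA3 markers, a list that includes Rgs14, 12 of 14 had higher values in CLO (median log2 fold change 0.45). Rgs17 had lower values without overlap, at 28.4 ± 1.55 CPM in CLO and 39.9 ± 8.41 CPM in Ctrl, but its log2 fold change of -0.49 was -0.18 without Ctrl replicates 1 and 2. Grk3, a receptor kinase, was at 38.3 ± 10.3 and 57.5 ± 15.4 CPM in CLO and Ctrl. Effectors of receptor-dependent plasticity had lower values in 11 of 15 genes (median -0.17, and -0.01 with the length trend removed). Among them Map1b, a microtubule protein made at dendrites, was at 599 ± 188 CPM in CLO and 928 ± 166 CPM in Ctrl. Mtor, a kinase that controls translation, was at 64.9 ± 12.6 and 87.4 ± 21.0 CPM in CLO and Ctrl. Adam10, a membrane protease, was at 45.5 ± 8.72 and 53.6 ± 5.87 CPM in CLO and Ctrl. The groups overlapped for Map1b (adjusted p = 0.301 by edgeR), Mtor and Adam10. With the length trend removed, the log2 fold change of Map1b went from -0.63 to -0.30 and that of Mtor from -0.43 to -0.20.

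**Figure D5:**
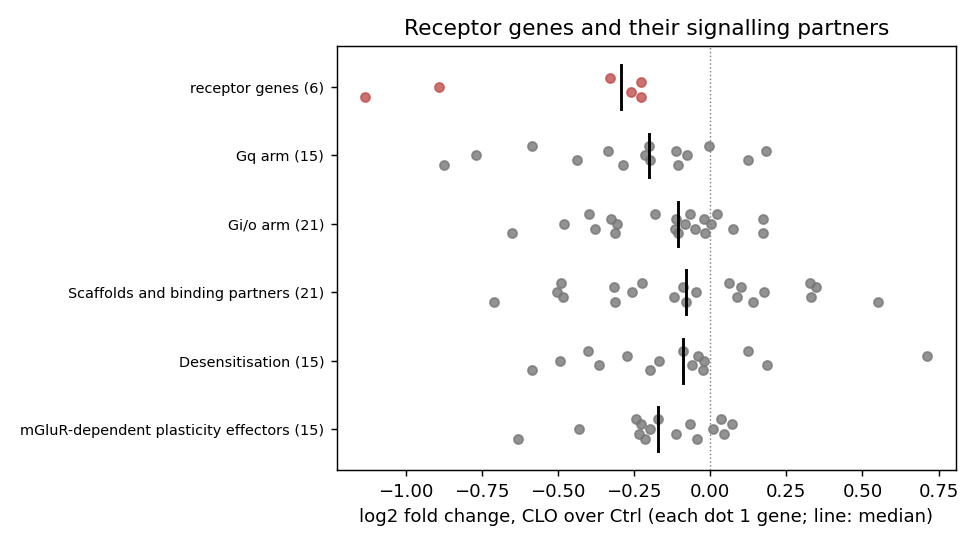
Log2 fold change (CLO over Ctrl) of the 6 receptor genes and of each tested gene on 5 signalling lists, with the number of genes in parentheses and the median as a line. The median is -0.29 for the receptors and between -0.20 and -0.08 for the lists, whose genes lie on both sides of 0.

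Among the genes most like each receptor over the 6 libraries, by Pearson r of log2 CPM among 12617 other genes, were Gad1 and Vwa5b2 for Grm4 (r = 0.9975 and 0.9971) and Helz, Hirip3 and Dnmt3a for Grm8 (0.9974, 0.9968 and 0.9958). For Grm2 they were Fam184a, Nckap5 and Adamts20 (0.9929, 0.9926 and 0.9925), and for Grm3 Abcc9, P2rx7 and Kcnh5 (0.9975, 0.9948 and 0.9913). For Grm5 they were Zfp532, Zbed4 and Atp2b3 (0.9955, 0.9951 and 0.9949), and for Grm7 Stag1, Chl1 and Gtf2i (0.9977, 0.9964 and 0.9963). Gad1 is also on the interneuron list. With 6 libraries such values are common, since each receptor had between 172 and 392 genes above an r of 0.95.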

How the data were processed

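Raw counts of reads per gene and TPM values were deposited by the authors. The TPM values, per deposited gene length, were recomputed from the counts to within 5e-04. Per the submitters' processing notes, the tools included HISAT2 2.2.0, cutadapt 2.9 and featureCounts 2.6.0, with GRCm39 as the genome; the sources used here do not give their options. Of 56514 rows, 1103 without gene annotation (0.640 to 0.780% of counts) were left out. Genes kept by filterByExpr went into the test of edgeR 4.0.16 under R 4.3.3 (TMM factors, robust quasi-likelihood test, CLO over Ctrl, two-sided, no block, Benjamini-Hochberg over 16129 genes, threshold 0.05); SE is the log2 fold change over the root of F. Levels in CPM are TMM-scaled, and log2 CPM has a prior count of 2. TPM serves only to compare genes and was not tested. Groups were taken from the sample titles. DESeq2 1.42.0, limma 3.58.1, other scalings and filters, a length correction and left-out libraries were alternatives. Genes named are the 6 receptors, genes overlapping them, the 3 most alike per receptor (mean of at least 1 CPM, no model names or pseudogenes), the 3 with the smallest p per signalling list and 10 chosen partners, apart from some that are not reported here. Neocortex, retrohippocampal, thalamus and habenula, striatum, cerebellar granule, interneuron, astrocyte, CA1, CA2/CA3, dentate and spermatid markers were among the cell type lists. Of 88 signalling symbols 87 matched a row. The members and lists were chosen with earlier results of these data known. Scripts were tested on simulated data.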

Additional observations from a re-analysis of the deposited data

How the results depend on the processing

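The lower fitted values of Grm2, Grm3, Grm4, Grm7 and Grm8 kept their direction under all 17 alternatives. Grm5 did not, at 0.0217 with the length trend removed and 0.0336 with the length trend removed and the replicate block (adjusted p = 0.959 and 0.928 by edgeR). The median of the 6 genes ran from -0.41 to -0.19. With 1 library left out, log2 fold changes ran from -0.41 to -0.06 (Grm2), -0.42 to -0.20 (Grm3), -1.55 to -0.89 (Grm4), -0.40 to -0.13 (Grm5), -0.32 to -0.16 (Grm7) and -1.36 to -0.56 (Grm8), and the count of genes called by edgeR from 0 to 20 (2 without Ctrl replicate 1 and 20 without Ctrl replicate 3). That count was 204 by DESeq2, 3473 with quality weights, 699 with no filter, and 0 under the others. Calls were gained by Grm4 with DESeq2 (-1.14), quality weights (-1.23) and no filter (-1.14), by Grm8 with quality weights (-0.93) and no filter (-0.90), and by Grm3 with quality weights (-0.48). The cause was not tested. With the replicate number as a block, Grm4 was at -1.15 (adjusted p = 0.288) and Grm8 at -0.97 (0.308), and 0 genes were called. Whether the numbers pair the libraries is not stated in the labels. Deviations of same-numbered libraries from their group means correlated at -0.157, -0.095 and 0.277, and CLO replicate 3 alone was most like its own number. These values cannot decide the question, since the deviations of the few libraries in a group offset one another.

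List medians that moved by more than the spread between libraries were, with the length trend removed, 0.045 (scaffolds), -0.0495 (desensitisation), 0.12 (CA1) and 0.11 (microglia). Without Ctrl replicates 1 and 2 they were -0.14 (desensitisation), 0.0879 (CA1), 0.22 (CA2/CA3), -0.0376 (thalamus and habenula), 0.20 (cerebellar granule), -0.0062 (interneuron), 0.0311 (astrocyte), 0.13 (oligodendrocyte), 0.15 (microglia), 0.18 (endothelial), 0.55 (meningeal fibroblast) and -0.96 (choroid plexus).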
